A study of Mus musculus with 16 samples.

Results

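Expression of 10 adipocyte genes was followed across 16 mouse osteosarcomas. The genes were taken from the raw count table by name: *Adipoq*, *Lep*, *Retn*, *Cfd*, *Plin1*, *Plin4*, *Cidec*, *Fabp4*, *Lpl* and *Pparg*. All 10 are among the 25054 genes counted, and 7 of them are among the 15413 genes that passed the filter on low counts, while *Adipoq*, *Lep* and *Retn* did not. RNA had been depleted of ribosomal RNA and sequenced from tumors of mice carrying the *OsxCreERT2* transgene on 1 allele and floxed *p53* and *Rb1* on both. The 8 tumors labeled KO came from 8 mice (Massa, Medusa, Montana, Ohio, Prince, Grilka, Zelda and Oregon) that also carried floxed *Arid1a* on both alleles, and their body sites are not in the labels. The 8 tumors labeled WT had no floxed *Arid1a* and came from only 4 mice, with 4 tumors from N42 (right pelvis, right femur, left limb and left shoulder), 2 from N43 (spine and pelvis), and 1 each from N215 (right hind limb) and N25 (lung). All mice, of both sexes, had received tamoxifen at 400 µg/g at 1 month of age and were more than 6 months old. The Cre is driven by *Osterix*, a regulator of pre-osteoblasts, so recombination was directed to bone-forming cells and their descendants, and the counts do not show which cells of a tumor recombined. Because KO sites are not given, genotype and site cannot be told apart.

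White adipocytes store triglyceride in a single large lipid droplet. PPARγ, the nuclear receptor encoded by *Pparg*, directs their differentiation together with C/EBP factors. Mature adipocytes secrete adiponectin (*Adipoq*), leptin (*Lep*), resistin (*Retn*) and the serine protease adipsin, also called complement factor D (*Cfd*). Perilipins coat the droplet, and CIDEC fuses droplets. Fat lies under the skin, around muscle and in the marrow cavity, so bone tumors can lie next to it. *Adipoq*, *Plin1*, *Cidec*, *Lep*, *Cfd* and *Retn* were treated as adipocyte-defining genes here. The other 4 genes are shared with further cell types, *Fabp4* with endothelium and macrophages, *Lpl* with macrophages and muscle, *Pparg* with macrophages and *Plin4* with skeletal muscle.

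The start regions of 4 genes are shown because *Pparg* is the regulator of the group and *Adipoq*, *Cidec* and *Cfd* are the defining genes that separated tumors by site among the WT samples, as described further on. RefSeq start regions (GRCm38.p6) were found for 8 of the 10 genes, 11 starts in all, and none were found for *Fabp4* and *Lpl*. Each sequence holds the 250 bases before the start, 5′ to 3′ on the strand of the gene. Capitals mark matches on either strand to 3 motifs, the nuclear receptor half-site AGGTCA, the C/EBP-type site TTGCNNAA and the CCAAT box.
Adipoq, chr16:23146286-23146535, plus strand: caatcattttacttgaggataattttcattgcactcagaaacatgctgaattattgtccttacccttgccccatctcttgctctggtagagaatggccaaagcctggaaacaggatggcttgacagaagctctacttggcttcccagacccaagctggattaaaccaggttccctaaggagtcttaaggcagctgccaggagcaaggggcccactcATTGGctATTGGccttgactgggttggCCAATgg
Cidec, chr6:113435761-113436010, minus strand: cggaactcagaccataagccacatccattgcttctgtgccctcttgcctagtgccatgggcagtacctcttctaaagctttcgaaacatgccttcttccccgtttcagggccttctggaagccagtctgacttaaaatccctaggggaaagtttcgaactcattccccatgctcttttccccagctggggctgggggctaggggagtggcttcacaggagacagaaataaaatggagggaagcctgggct
Cfd, chr10:79890603-79890852, plus strand: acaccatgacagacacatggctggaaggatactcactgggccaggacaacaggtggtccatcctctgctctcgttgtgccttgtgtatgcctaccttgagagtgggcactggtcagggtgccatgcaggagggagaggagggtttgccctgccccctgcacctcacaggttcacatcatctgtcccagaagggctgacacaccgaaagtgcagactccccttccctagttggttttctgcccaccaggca
Pparg, chr6:115421816-115422065, plus strand: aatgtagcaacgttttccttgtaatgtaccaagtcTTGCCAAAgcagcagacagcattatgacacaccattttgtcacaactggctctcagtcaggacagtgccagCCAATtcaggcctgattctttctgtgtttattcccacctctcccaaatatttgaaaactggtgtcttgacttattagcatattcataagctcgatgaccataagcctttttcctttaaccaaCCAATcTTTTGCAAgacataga
The *Pparg* sequence precedes the most downstream of its 3 starts, which belongs to the adipocyte isoform *Pparg2*. It held 2 C/EBP-type sites, the nearer beginning 16 bases before the start, and 2 CCAAT boxes. The *Adipoq* region held 3 CCAAT boxes, and the *Cfd* region and the *Cidec* region shown held no match to the 3 motifs. *Cidec* has a second RefSeq start, not shown, with a C/EBP-type site beginning 198 bases before it. The other *Pparg* starts each held a half-site, beginning 28 and 9 bases before the start. Of all 32851 RefSeq windows of this length, 14.02% held the half-site, 9.56% the C/EBP-type site and 33.8% a CCAAT box. A direct repeat of half-sites, AGGTCA and again AGGTCA with any single base between, which contains the half-site motif, was in 0.0335% of windows and in no member's window. A match is only a match of letters. The counts cover whole genes, so they do not separate the 3 *Pparg* starts.

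Total counts on genes ranged from 1109487 to 15059640 in KO (median 5367669.5) and from 7806160 to 16962329 in WT (median 14828152.5). Values are given as CPM, the count of a gene divided by the TMM-normalized library and scaled per 1e6. Because depth and TMM scaling differed, a count of 3 equaled 6.69 CPM for Massa and 4.03 CPM for Grilka, which had the fewest counts. It equaled 0.146 to 0.340 CPM for WT tumors. TMM scaling took the library of Massa from 1109487 to 448336 and that of Grilka from 1812818 to 744759, which raises their CPM. It took Oregon from 5743976 to 3575971 and Montana from 4991363 to 3920398, which raises theirs too. *Arid1a*, counted over the whole gene, was between 107 and 270 CPM in KO and between 125 and 236 CPM in WT, which checks no label because reads on deleted exons are not separated from the rest. Some KO libraries stood apart by tissue markers. Skeletal muscle genes (12 genes, including *Myh4* and *Atp2a1*) summed to 164785 CPM in Oregon and 107866 CPM in Montana. In the other 14 tumors they summed to at most 9218 CPM. Lung epithelium genes summed to 11351 CPM in Massa and 26604 CPM in the tumor labeled lung, N25. Salivary gland genes summed to 12590 CPM in Prince and liver genes to 1542 CPM in Zelda.

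All 10 adipocyte genes had their highest level in a single tumor, the KO tumor Montana. Of all 15413 genes tested, 6.38% were highest there. Levels in the other 7 KO tumors were mostly low, except for *Lpl* and *Pparg*. For these 7 tumors the medians of *Lpl* and *Pparg* were 95.9 and 8.87 CPM, against WT medians of 63.5 and 3.37 CPM. WT tumors lay below Montana for every gene and had more even levels. In bulk RNA, fewer cells of a type and less RNA per cell cannot be told apart.

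**Figure D1:**
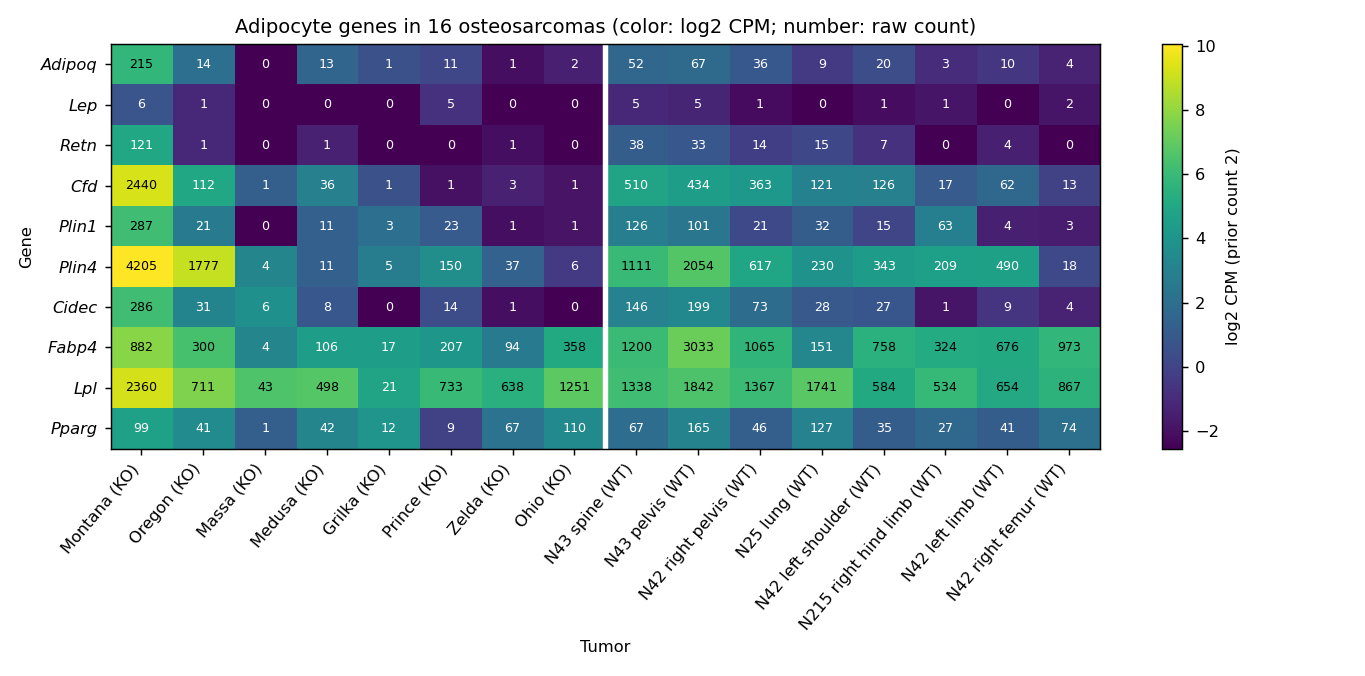
Heatmap of 10 adipocyte genes (rows) in 16 tumors (columns), KO on the left and WT on the right, each ordered by the summed CPM of the 6 adipocyte-defining genes. Color is log2 CPM with a prior count of 2 and the number in each cell is the raw count. Montana, at the far left, holds the highest normalized value of every row, for example 2440 counts of *Cfd*.

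Among the secreted products, *Adipoq* (chr16:23146536-23158028 in GRCm38) ranged in KO from 0 CPM in Massa to 54.8 CPM in Montana, with a median of 1.13 CPM. In WT it ranged from 0.227 CPM in the N42 right femur tumor to 3.36 CPM in the N43 pelvis tumor, with a median of 0.881 CPM. Montana was 14 times the next tumor, Oregon at 3.92 CPM, and the remaining KO values lay among the WT values or below them.

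*Cfd* (chr10:79890853-79892655) ranged in KO from 0.0830 CPM in Prince to 622 CPM in Montana, with a median of 1.79 CPM. In WT the range was 0.738 CPM in the N42 right femur tumor to 28.0 CPM in the N43 spine tumor, with a median of 7.62 CPM. The KO tumors Massa, Ohio, Prince, Grilka and Zelda had 3 counts or fewer. Montana held 93.6% of the CPM summed over KO, 19.9 times the next tumor, Oregon. The groups overlapped.

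*Retn* (chr8:3655770-3660110) had 121 counts in Montana, or 30.9 CPM, and 0 or 1 count in each of the other 7 KO tumors. In WT it had 0 counts in the N215 and N42 right femur tumors, a median of 0.547 CPM and a maximum of 2.09 CPM in the N43 spine tumor. *Retn* was thus above 1 count in 6 WT tumors and in 1 KO tumor, but the shallower KO libraries also yield fewer counts. A single count equaled 2.23 CPM in Massa and 1.34 CPM in Grilka, above the WT median.

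*Lep* (chr6:29060220-29073877) was close to its detection limit everywhere. It had 6 counts in Montana (1.53 CPM, 95% exact Poisson interval 0.562 to 3.33), 5 in Prince, 1 in Oregon and none in the other 5 KO tumors. In WT it had at most 5 counts, reached in both N43 tumors (0.275 CPM at the spine), and 0 counts in 2 tumors. Intervals and floors cover counting error only.

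The lipid droplet genes had the same leading tumor. *Plin1* (chr7:79720218-79732903), the perilipin that guards triglyceride from lipases, ranged in KO from 0 CPM in Massa to 73.2 CPM in Montana (median 2.12 CPM) and in WT from 0.170 CPM in the N42 right femur tumor to 7.15 CPM in the N215 tumor (median 1.54 CPM). The N215 hind limb tumor was second of the 16 with 63 *Plin1* counts, yet it had 3 counts of *Adipoq* and 1 of *Cidec*.

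*Cidec* (chr6:113424634-113435760) ranged in KO from 0 CPM in Ohio and Grilka to 73.0 CPM in Montana, with a median of 1.43 CPM. WT values ran from 0.113 CPM in N215 to 9.98 CPM in the N43 pelvis tumor, with a median of 1.70 CPM. Massa ranked second of all tumors at 13.4 CPM, but this was 6 counts (95% exact Poisson interval 4.91 to 29.1 CPM), and Massa had no count of *Adipoq* or *Plin1*.

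*Plin4* (chr17:56100591-56109803), a perilipin of adipocytes and muscle, was high in a pair of KO tumors. In KO it was lowest in Ohio at 0.572 CPM, with a median of 7.82 CPM, 497 CPM in Oregon and 1073 CPM in Montana. In WT it ranged from 1.02 CPM in the N42 right femur tumor to 103 CPM in the N43 pelvis tumor, with a median of 24.2 CPM. The 2 KO tumors with high *Plin4* are the 2 with high skeletal muscle genes. *Plin4* overlaps *Hdgfl2* on the opposite strand, and since library strand was not given in the sources used here, reads of the overlap may belong to either gene.

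The fatty acid handling genes were detected in every tumor. *Fabp4* (chr3:10204088-10208576), the fatty acid carrier of adipocytes, ranged in KO from 6.38 CPM in Zelda to 225 CPM in Montana (median 22.6 CPM) and in WT from 9.75 CPM in N25 to 152 CPM in the N43 pelvis tumor (median 48.3 CPM). Montana was 1.48 times the N43 pelvis tumor, the smallest such ratio of the 10 genes. Endothelial genes summed to 1249 CPM in Montana, the highest of the KO tumors, and to 2369 CPM in N25, where *Fabp4* was lowest of the WT tumors.

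*Lpl* (chr8:68880491-68907448), the lipase that releases fatty acids from circulating triglyceride, ranged in KO from 28.2 CPM in Grilka to 602 CPM in Montana (median 100.5 CPM). In WT it ranged from 33.0 CPM in the N42 left limb tumor to 112 CPM in N25 (median 63.5 CPM). Besides Montana, the KO tumors Oregon at 199 CPM and Ohio at 119 CPM exceeded every WT tumor.

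*Pparg* (chr6:115360951-115490399) was the least concentrated of the 10 genes. It ranged in KO from 0.747 CPM in Prince to 25.3 CPM in Montana (median 9.68 CPM) and in WT from 2.07 CPM in the N42 left shoulder tumor to 8.27 CPM in the N43 pelvis tumor (median 3.37 CPM). Montana held 31.7% of the CPM summed over KO. The KO tumors Medusa, Montana, Ohio, Grilka and Oregon lay above all WT tumors, although Grilka rested on 12 counts and Massa had only 1. *Gm44079* is annotated antisense to *Pparg*.

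Levels were compared between genes only after division by the length of the exon union, as median CPM per kilobase. In WT the order was *Fabp4* at 10.8, *Cfd* at 8.27, *Lpl* at 6.06, *Plin4* at 4.19, *Pparg* at 1.14, *Cidec* at 0.916, *Adipoq* at 0.638, *Retn* at 0.346, *Plin1* at 0.332 and *Lep* at 0.0257. The ranges over tumors of neighbors in this order overlapped. In KO the highest medians per kilobase were *Lpl* at 9.60, *Fabp4* at 5.04 and *Pparg* at 3.28, all shared genes, and the defining genes lay at 1.94 (*Cfd*) or below.

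The 6 defining genes were then summed in each tumor. Montana reached 856 CPM (3355 counts), followed by Oregon at 50.3, the N43 spine tumor at 48.2, the N43 pelvis tumor at 42.1 and the N42 right pelvis tumor at 24.7 CPM. The lowest sums were 0.382 CPM in Ohio and 0.475 CPM in Zelda, from 4 and 7 counts, and the N42 right femur tumor at 1.48 CPM. Median sums were 10.6 CPM in KO and 12.4 CPM in WT. The KO median included Massa and Grilka, with 7 and 5 counts.

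The ratio of *Cfd* to *Adipoq* was read first in the 5 tumors with the largest sums, to which *Cfd* itself contributes most. The ratio of *Cfd* to *Adipoq* in CPM was 11.3 in Montana, 8.0 in Oregon, 9.81 in the N43 spine tumor, 6.48 in the N43 pelvis tumor and 10.1 in the N42 right pelvis tumor. In the other tumors with *Adipoq* counts this ratio ran from 0.0909 in Prince to 13.4 in N25, and it was 2.77 in Medusa. Prince had 11 counts of *Adipoq*, 23 of *Plin1*, 14 of *Cidec* and 5 of *Lep*, but 1 of *Cfd* and none of *Retn*. In the 5 tumors with the largest sums, the ratio of *Plin4* to *Adipoq* was less even. It was 17.1 in the N42 right pelvis tumor, 19.6 in Montana, 21.4 and 30.7 in the N43 tumors and 127 in Oregon.

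**Figure D2:**
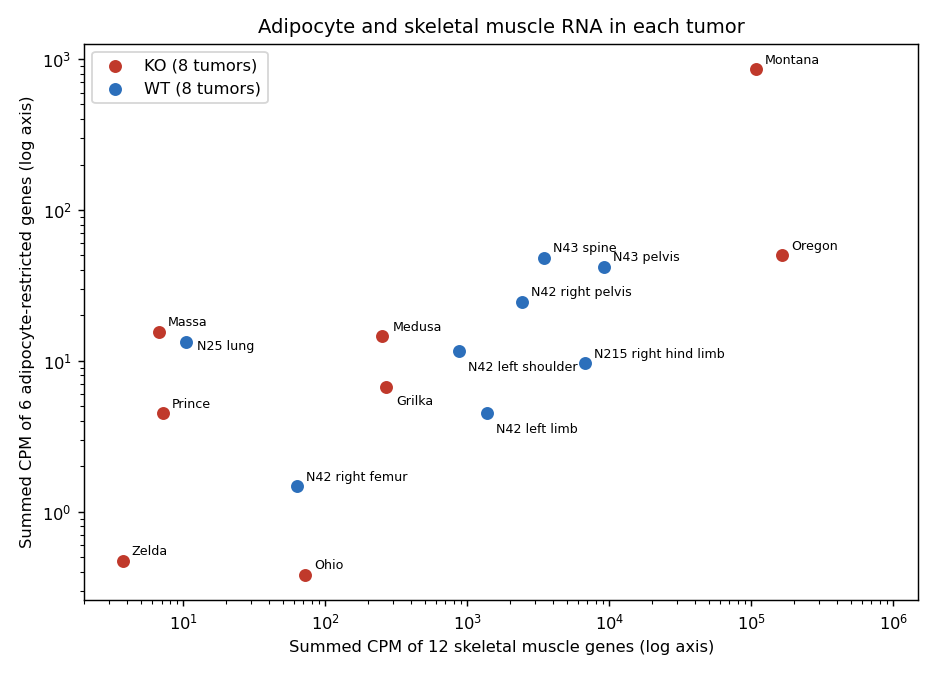
Summed CPM of the 6 adipocyte-defining genes (vertical, log axis) against summed CPM of 12 skeletal muscle genes (horizontal, log axis), 1 point per tumor, KO in red and WT in blue. Montana and Oregon are far to the right, but only Montana, at 856 CPM, is far above the others on the adipocyte axis.

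In the plot of adipocyte against muscle genes, the tumors with the largest adipocyte sums were also among those with the most muscle RNA. Muscle genes summed to 9218 CPM at the N43 pelvis, 3434 CPM at the N43 spine and 2427 CPM at the N42 right pelvis. N215, at 6770 CPM of muscle genes, had 9.64 CPM of defining adipocyte genes. Oregon had more muscle RNA than Montana by this list and 50.3 CPM of defining adipocyte genes against 856. Among the tumors with little muscle RNA, Massa and N25, which carried lung epithelium genes, had sums of 15.6 and 13.2 CPM, from 7 and 205 counts. Medusa, with 7.81 CPM of lung epithelium genes, had 14.6 CPM from 69 counts. Ohio, with 3.82 CPM of lung epithelium genes, had 0.382 CPM from 4 counts. Macrophage genes were not raised in Montana, at 316 CPM within a KO range of 219 to 763. The part of adjacent tissue in the adipocyte values was not tested.

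The main comparison asked whether the adipocyte genes differ between tumors labeled KO and WT. None of the 7 tested genes passed the threshold in edgeR's two-sided quasi-likelihood test (adjusted p under 0.05 over all 15413 genes), where 4.01% of all tested genes did. At an unadjusted p under 0.05 there were 2 of the 7, *Lpl* and *Pparg*, against 23% of all genes. DESeq2 called none of the 9 to which it gave an adjusted p (all but *Lep*), where it called 12.5% of such genes, and 3 were under an unadjusted p of 0.05. KO and WT ranges overlapped for all 10 genes, as for all but 0.415% of the tested genes.

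The estimates were large but imprecise. For *Cfd* the log2 fold change, KO minus WT, was 2.92 with a standard error of 1.44 (edgeR adjusted p = 0.235), and for *Plin4* it was 2.53 with a standard error of 1.29 (edgeR adjusted p = 0.250). *Plin1* (1.94, standard error 1.15) and *Cidec* (1.92, standard error 1.22) had edgeR adjusted p-values of 0.320 and 0.358. *Lpl* differed by 1.27 (standard error 0.52) and *Pparg* by 1.25 (standard error 0.56), with edgeR adjusted p-values of 0.158 and 0.189. The estimate for *Fabp4* was −0.08 (standard error 0.65, edgeR adjusted p = 0.957). Without the filter on low counts, *Adipoq* was fitted at 2.49 (edgeR adjusted p = 0.184), *Retn* at 2.32 (edgeR adjusted p = 0.329) and *Lep* at 1.34 (edgeR adjusted p = 0.451).

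The sign of these estimates depended on Montana. Of the 7 genes, 6 had a positive estimate, as did 55.9% of all tested genes, and the median was 1.92 against 0.10 over all tested genes. Without Montana none of the 7 was called (edgeR, 0 at an unadjusted p under 0.05), where 2.63% of the genes tested were, and 3 were positive and 4 negative, with a median of −0.17. *Cfd* went to −0.81 (standard error 1.07), *Plin1* to −0.54 (standard error 0.95) and *Cidec* to −0.17 (standard error 1.13), while *Plin4* stayed positive at 1.13, *Lpl* at 0.51 and *Pparg* at 0.87. Without Montana and Oregon 2 were positive, *Lpl* and *Pparg*, and *Plin4* stood at −2.75 (edgeR adjusted p = 0.0861) and *Fabp4* at −1.59 (edgeR adjusted p = 0.103).

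**Figure D3:**
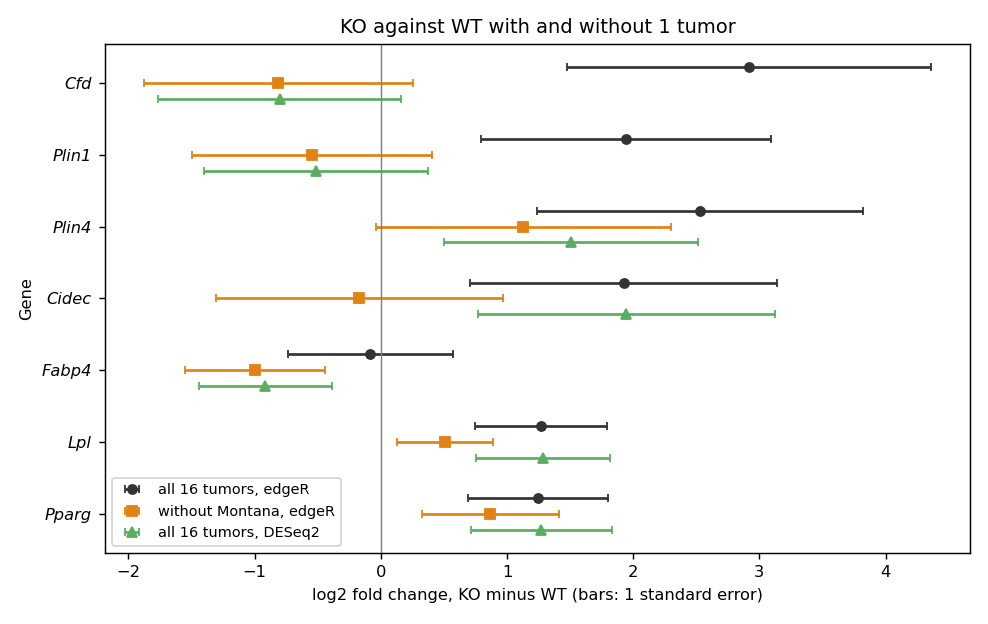
Log2 fold changes, KO minus WT, of the 7 tested adipocyte genes with bars of 1 standard error, from edgeR with all 16 tumors (circles), edgeR without Montana (squares) and DESeq2 with all tumors (triangles). *Cfd*, *Plin1* and *Cidec* move from 2.92, 1.94 and 1.92 to below 0 when Montana is left out.

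A permutation test of mean log2 CPM, which gives a single tumor less weight, was run for each gene. The difference was 0.31 for *Adipoq* (two-sided exact permutation test over 16 tumors, p = 0.792), −1.03 for *Cfd* (exact permutation p = 0.517) and 0.01 for *Plin1* (exact permutation p = 0.992). The smallest p-values were 0.187 for *Lpl* and 0.197 for *Pparg* (exact permutation tests, differences 0.74 and 0.84). None of the 10 genes was under 0.05 before any adjustment, against 21.4% of the tested genes. With counts summed per mouse, 8 KO against 4 WT mice, the p-values of the 10 genes lay between 0.485 and 0.982 (exact permutation tests). The smallest p these designs allow is 0.000155 for tumors and 0.00202 for mice.

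The values were more widely spread in KO than in WT, as for most genes. The SD of log2 CPM of *Cfd* was 3.92 in KO and 1.75 in WT, that of *Adipoq* 2.71 and 1.19, and that of *Plin4* 3.72 and 1.90 (n = 8 and 8). The SD was larger in KO for all 10 genes, as it was for 90.4% of all tested genes. This difference was not tested, the KO libraries are shallower, and the WT group holds 4 mice only.

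Among the WT tumors, where sites are known, 4 of the 10 adipocyte genes, *Adipoq*, *Cfd*, *Cidec* and *Plin4*, were higher in each spine or pelvis tumor than in every other tumor. *Adipoq* was at 1.75 to 3.36 CPM in the 3 spine and pelvis tumors and at 0.227 to 1.18 CPM in the 5 others. *Cfd* was at 17.6 to 28.0 CPM against 0.738 to 7.81 CPM, *Cidec* at 3.55 to 9.98 CPM against 0.113 to 1.81 CPM, and *Plin4* at 29.99 to 103 CPM against 1.02 to 24.7 CPM. The ranges overlapped for the other 6 genes, and *Plin1* was highest in the N215 hind limb tumor and *Lpl* in the N25 lung tumor. Skeletal muscle genes summed to 2427 to 9218 CPM in the 3 spine and pelvis tumors, to 6770 CPM in N215 and to 10.46 to 1377 CPM in the remaining 4, and their part in the site difference was not tested. This grouping was chosen after the values were seen, and the 3 tumors come from 2 mice, so no test is given. How many of all tested genes separate these tumors in the same way was not counted, so the 4 of 10 has no share to be read against.

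**Figure D4:**
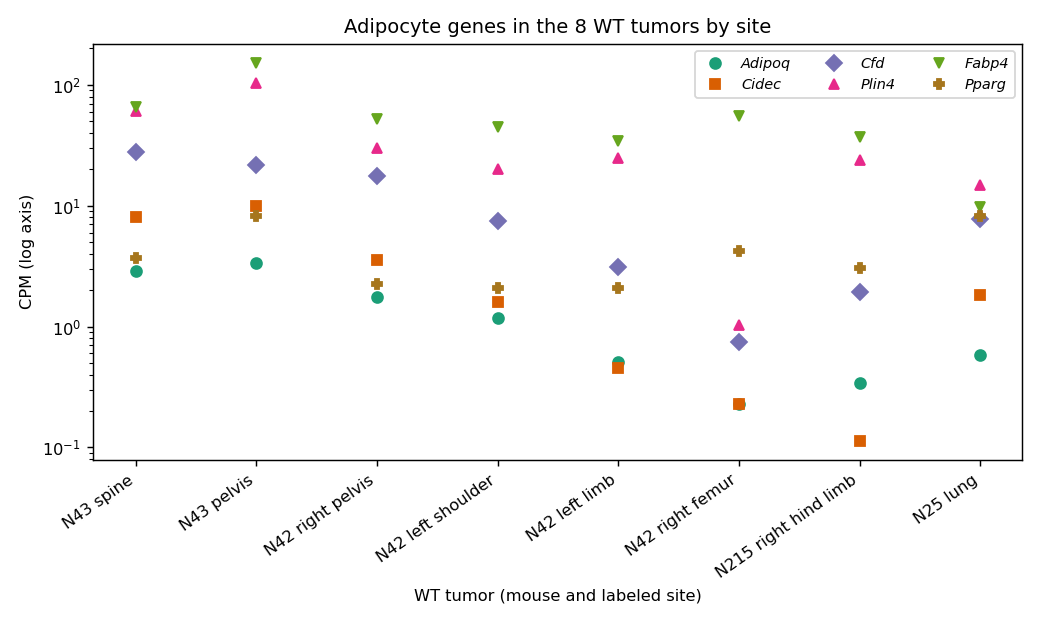
CPM (log axis) of 6 adipocyte genes in each of the 8 WT tumors, arranged by mouse and labeled site. *Adipoq*, *Cidec*, *Cfd* and *Plin4* are highest in the 3 tumors on the left (N43 spine, N43 pelvis and N42 right pelvis), whereas *Fabp4* and *Pparg* do not follow this order.

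Tumors of a single mouse differed widely. Within N42 the right pelvis tumor was highest for 7 of the 10 genes and the right femur tumor for 3, *Fabp4*, *Pparg* and *Lep*. *Plin4* differed by 29.3-fold between the N42 right femur and right pelvis tumors, *Cfd* by 23.9-fold, *Cidec* by 15.6-fold and *Adipoq* by 7.70-fold. Skeletal muscle genes moved alongside between these tumors, at 62.7 CPM in the femur tumor and 2427 CPM in the pelvis tumor. They were at 1377 CPM in the left limb and 875 CPM in the left shoulder tumor. There *Cfd* was at 3.13 and 7.44 CPM, *Cidec* at 0.455 and 1.59, *Adipoq* at 0.505 and 1.18 and *Plin4* at 24.7 and 20.3. The part of muscle genes was not tested. *Fabp4*, *Pparg* and *Lpl* stayed within 1.62, 2.03 and 2.01-fold over the 4 tumors. The 2 tumors of N43 were alike, with ratios of 1.10 to 2.31 over the 10 genes.

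The other genes of the adipocyte program were taken from 8 further lists, 85 genes in all, of which 84 were in the table and 66 were tested. None was called higher and 2 were called lower in KO, against 1.86% and 2.15% of all tested genes. Their median log2 fold change was 0.29, against 0.10 for all tested genes. Both called genes take part in triglyceride turnover but neither is restricted to adipocytes. At an unadjusted p under 0.05 there were 13 of the 66, against 23% of all tested genes. DESeq2 called 8 of the 79 to which it gave an adjusted p, against 12.5% of all such genes, with 6 higher (*G0s2*, *Gpd1*, *Aqp7*, *Rxrg*, *Nr1h3* and *Adrb3*) and the same 2 lower.

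*Plin2*, the perilipin found on lipid droplets of most cell types, ranged in KO from 14.8 to 78.1 CPM (median 28.5) and in WT from 34.1 to 193 CPM (median 87.5). Means were 33.6 ± 20.6 CPM in KO and 99.6 ± 49.9 CPM in WT (SD, n = 8 each). The fitted difference, −1.59 ± 0.38 (SE) in log2, had an edgeR adjusted p of 0.0266. Only Massa, with 35 counts, and Montana reached the lowest WT tumor, N215. *Plin2* was 46.7 CPM in Montana, second of the KO tumors and below the WT median.

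*Angptl4*, a secreted inhibitor of lipoprotein lipase and a target of PPAR receptors and hypoxia, was at 0.415 to 44.5 CPM in KO (median 6.45) and 33.2 to 148 CPM in WT (median 63.9). Means were 11.03 ± 14.1 CPM in KO and 74.5 ± 39.6 CPM in WT (SD, n = 8 each). The fitted difference, −2.70 ± 0.65 (SE) in log2, had an edgeR adjusted p of 0.0292. Ohio at 44.5 CPM was the only KO tumor within the WT range.

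**Figure D5:**
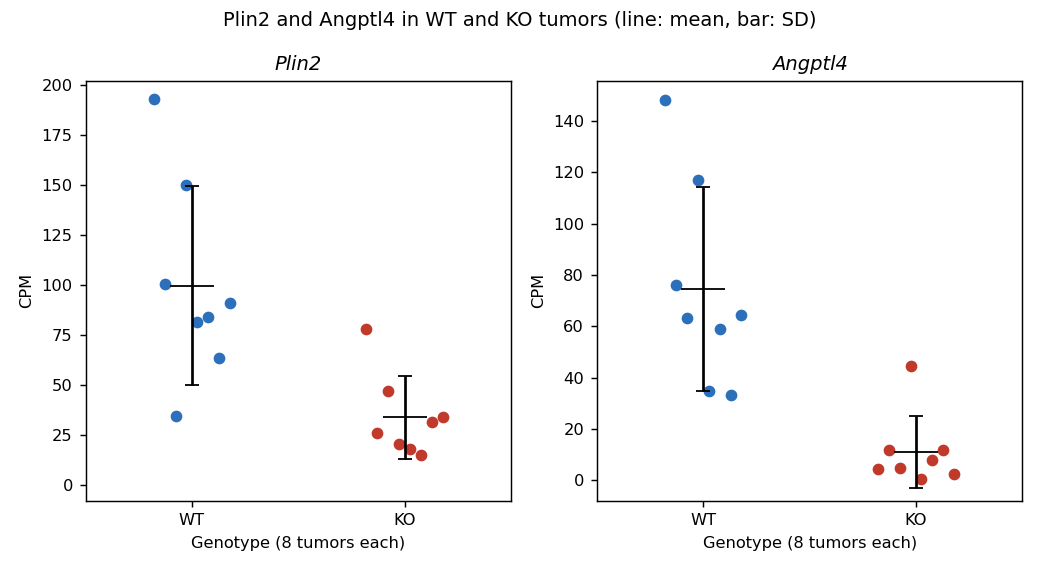
CPM of *Plin2* and *Angptl4* in 8 WT (blue) and 8 KO (red) tumors, with the mean as a line and the SD as a bar. Mean *Plin2* is 99.6 CPM in WT and 33.6 in KO, and mean *Angptl4* is 74.5 and 11.03, with 1 or 2 KO tumors inside each WT range.

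Neither call held with mice in place of tumors. With counts summed per mouse *Plin2* was at −1.32 (edgeR adjusted p = 0.49) and *Angptl4* at −2.50 (edgeR adjusted p = 0.424), and without the 4 tumors of N42 the adjusted p-values were 0.428 and 0.398 in edgeR. Without the N43 spine, the N42 right pelvis or the N42 right femur tumor, edgeR adjusted p-values were 0.0527 to 0.0612 for *Plin2* and 0.0557 to 0.0632 for *Angptl4*, and *Angptl4* also missed the threshold without Montana (0.0529), Oregon (0.0516) or the N42 left shoulder tumor (0.0525). Both genes were highest in the N43 spine tumor and next in the N42 right femur tumor. Of the 10 macrophage genes 8 were called lower in KO by edgeR, against 2.15% of all tested genes. No gene of any cell type list was called with limma-voom and a random effect of mouse, with counts summed per mouse, or without the tumors of N42. These settings called few genes of any kind. They called 7 higher and 10 lower of 15413 genes, 6 and 4 of 16007, and 5 and 3 of 16050, in that order. Macrophage sums were 219 to 763 CPM in KO and 461 to 2076 CPM in WT, and their part in the lower *Plin2* and *Angptl4* was not tested.

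By list, the genes of triglyceride storage and lipolysis had a median log2 fold change of 0.53 (13 tested, 1 lower) and those of fatty acid uptake and lipogenesis 0.68 (18 tested, 1 lower). No gene was called among the adipogenic transcription factors (10 tested, median 0.25), inhibitors of adipogenesis (4, median 0.07), other membrane and secreted genes (6, median 0.01), receptors of adipocyte hormones (5, median 0.03), brown and beige genes (4, median 0.99) or marrow adipogenic stroma (6, median −0.35). At an unadjusted edgeR p under 0.05 these held 1, 0, 0, 0, 2 and 1 genes, against 23% of all tested genes.

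Montana led many of these genes too. Of the 84 genes 31 (36.9%) were highest in Montana, against 6.38% of the tested genes. These were 9 of 19 genes of fatty acid uptake and lipogenesis, 6 of 14 of storage and lipolysis, 7 of 12 other adipocyte genes, 4 of 11 transcription factors and 4 of 5 hormone receptors. In contrast, 1 of 10 brown and beige genes and none of 7 marrow stroma genes were highest there. *Car3*, a carbonic anhydrase abundant in fat and in slow muscle, was at 5466 CPM in Montana and 1068 CPM in Oregon. *Aqp7*, the glycerol channel of adipocytes, had 148 of its 313 counts in Montana, and *Adig* (adipogenin) had 30 of 82. The brown and beige genes, several of which muscle shares, summed to 142 CPM in Montana, second to Oregon at 324 CPM, and *Cox8b* was at 75.8 CPM and *Cox7a1* at 17.9 CPM in Montana. *Ucp1* and *Cidea*, the more restricted brown fat markers, had 0 counts there, but they had only 109 and 44 counts over all 16 tumors.

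Of the regulators, *Rxra*, the partner of PPARγ, was at 51.8 to 207 CPM in KO and 66.4 to 166 CPM in WT (log2 fold change 0.12, standard error 0.32). *Cebpb* was at 27.6 to 202 CPM in KO and 42.9 to 161 CPM in WT (log2 fold change −0.42, standard error 0.40). Both were highest in Montana. The inhibitors *Klf2* and *Gata2* had log2 fold changes of 0.19 and −0.05. The leptin receptor *Lepr*, known in marrow stroma, had a KO median of 30.6 CPM and a WT median of 493.3 CPM, but the KO tumor Zelda reached 695 CPM, above all WT tumors, and KO minus WT came to −1.90 ± 0.92 (SE) in log2, with an edgeR adjusted p of 0.223. Without Zelda it was −4.02 (edgeR adjusted p = 0.00390). That fit is given because of Zelda's high value, so its p is a description only. It called 650 genes higher and 698 lower of 15829, against 287 and 331 of 15413 with all tumors. The insulin receptor *Insr* was at 193 ± 72.2 CPM in KO and 197 ± 28.4 CPM in WT (SD, n = 8 each).

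The marrow stroma genes *Csf1* and *Vcam1* had log2 fold changes of −1.35 and −1.42 (edgeR adjusted p = 0.196 and 0.275), and both were near their lowest values in Montana and Oregon. *Cox8b* and *Ppargc1a*, which brown fat shares with muscle, were highest in Oregon at 135 and 99.8 CPM. The natriuretic peptide clearance receptor *Npr3* was highest in Massa at 53.5 CPM.

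Over the 16 tumors the profiles of the adipocyte genes resembled that of *Adipoq* to different degrees. Spearman's rho of log2 CPM with *Adipoq* was 0.79 for *Cfd* and *Plin1*, 0.73 for *Retn*, 0.71 for *Plin4*, 0.69 for *Fabp4*, 0.60 for *Lep*, 0.56 for *Cidec*, 0.41 for *Pparg* and 0.36 for *Lpl*. The median was 0.69 over the 16 tumors, 0.67 within the 8 KO tumors and 0.55 within the 8 WT tumors, and 0.55 without Montana and Oregon, where *Lpl* was at 0.04 and *Pparg* at 0.15. Within WT, *Cfd* and *Cidec* were at 0.95 each. These points share mice and depth, and low counts tie many ranks, so the values are descriptions. By rho with *Adipoq* over the 16 tumors, *Cfd* ranked 25 among the 15413 tested genes, *Plin1* 30, *Plin4* 179 and *Fabp4* 230. *Cidec* ranked 724, *Pparg* 1767 and *Lpl* 2329, so many other genes resembled *Adipoq* more than these did.

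The genes outside the lists whose profile was most like that of *Adipoq* over the 16 tumors were *Pde4dip* and *Phlda3* (rho 0.92 each), *Clip1* (0.89), *Gm10762* (0.88), *Plcl1* and *Dusp27* (0.86 each), *Fhl5* and *Mast2* (0.85 each), and *Tnnt1* and *Klhl30* (0.84 each). All 10 were highest in Montana or Oregon, the tumors with the highest skeletal muscle sums. *Pde4dip*, *Clip1*, *Gm10762*, *Dusp27*, *Mast2* and *Klhl30* were highest in Oregon and the others in Montana. *Tnnt1* encodes slow skeletal muscle troponin T, and it was at 303 CPM in Montana and 13.98 CPM in Oregon, whereas *Pde4dip* was at 7049 and 7347 CPM. In the same order, *Dusp27* was at 113 and 117 CPM and *Klhl30* at 112 and 193 CPM. The part of muscle RNA in this likeness was not tested.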

How the data were processed

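RNA of 16 mouse osteosarcomas, 8 KO and 8 WT by their labels, was analyzed from the raw counts per gene that the authors deposited. Per the labels and the study's methods, reads were aligned with Novoalign 2.08.01 to mm10 and Ensembl transcript models, multiple alignments were allowed, and USeq counted the reads before DESeq2 1.26.0 was run. Strand is not given in the sources used here. The smallest total of a gene is 6 counts, so rarer genes are absent.

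The counts were tested with edgeR 4.0.16 (R 4.3.3), using TMM, filterByExpr (minimum count 10, minimum total 15), the quasi-likelihood test and Benjamini-Hochberg adjustment over 15413 genes, with a threshold of 0.05 and no covariate. The biological coefficient of variation was 70.4%. CPM are counts over the TMM-normalized library, and log2 CPM used a prior count of 2. Alternatives were DESeq2 1.42.0, limma 3.58.1 (voom weights and a random effect of mouse, statmod 1.5.0), counts summed per mouse, RLE scaling, no filter, a prior count of 0.5 for the permutation tests, and leaving out tumors. Exact permutation tests used all 12870 splits of tumors or 495 of mice. Figures and tables used Python 3.11.15. Scripts were tested on simulated data.

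Tumors with the same animal code were treated as tumors of 1 mouse. The p-values over tumors take tumors of a mouse as independent. Positions are from GENCODE vM21 (GRCm38), later than the authors' models. No batch is given in the labels.

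The 10 genes, the lists and the lists of tissue markers were chosen with earlier results of these data known. Named genes were the 10 adipocyte genes, the called genes of each list or else its 2 most abundant, up to 2 per tissue list, and the 10 genes outside the lists most like *Adipoq* by Spearman's rho. *Aqp7*, *Adig*, *Ucp1*, *Cidea*, *Cox7a1* and the genes called by alternatives only were named after their values were seen.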

Additional observations from a re-analysis of the deposited data

Results flagged for a closer look

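In 10 of 20 groups (10 genes in KO and in WT, 8 tumors each) a single tumor lay far from the others, with a gap to the nearest tumor of more than 0.526 of the group's range of CPM. This cutoff corresponds to about 1 in 20 groups only for normally distributed values. CPM were skewed, as for *Cfd* in KO (mean 83.2 CPM, median 1.79 CPM), so no chance rate applies here. The rule was not applied to log2 CPM, where *Plin4* was at 10.07 in Montana and 8.96 in Oregon. The genes are also not independent, and 9 of the 10 cases are the same KO tumor. Montana stood apart for *Adipoq* (54.8 CPM), *Plin1* (73.2 CPM), *Plin4* (1073 CPM), *Fabp4* (225 CPM), *Lep* (1.53 CPM, from 6 counts), *Cidec* (73.0 CPM), *Lpl* (602 CPM), *Cfd* (622 CPM) and *Retn* (30.9 CPM). Among the 10 genes in KO, *Pparg* was the exception. In WT the N43 pelvis tumor stood apart for *Fabp4*, at 152 CPM.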

How the results depend on the processing

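No adipocyte gene was called in any alternative in which it had an adjusted p, which was all 25 for the 7 tested genes, 15 for *Adipoq*, 2 for *Retn* and 1 for *Lep*. Fold changes of *Lpl* and *Pparg* kept their sign in all 25 and stayed uncalled. Estimates that turned sign, on the log2 scale, were as follows. With DESeq2, *Adipoq* was −0.042, *Plin1* −0.51, *Cfd* −0.80 and *Retn* −2.38, and this tool's defaults replace outlying counts in groups of this size. With limma-voom, *Plin1* was −0.56, *Plin4* −1.29, *Cidec* −0.16 and *Cfd* −1.88. Without Montana and Oregon, *Plin1* was −1.21, *Plin4* −2.75, *Cidec* −1.07 and *Cfd* −2.60. *Fabp4* was 0.11 per mouse and 0.15 without Massa and Grilka. The cause was not tested. Leaving out 1 tumor at a time gave −0.54 to 2.30 for *Plin1*, −0.17 to 2.43 for *Cidec*, −0.81 to 3.27 for *Cfd* (each lowest without Montana) and −0.996 to 0.31 for *Fabp4*.

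Of the wider adipocyte lists, 2 genes were called, against 8 with DESeq2, 0 with limma-voom, 0 per mouse, 0 without the tumors of N42, 4 without the lung tumor (*G0s2* and *Nr1h3* joined, higher) and 1 without Montana and Oregon. Leaving out 1 tumor gave 0 (without the N43 spine, N42 right pelvis or N42 right femur tumor) to 8 (without Zelda). It gave 1 without Montana, Oregon or the N42 left shoulder tumor. Calls over all tested genes moved too. They were 287 higher and 331 lower in the main fit, 1559 and 958 with DESeq2, and 7 and 10 with limma-voom. Per mouse they were 6 and 4, without the tumors of N42 5 and 3, and without Zelda 650 and 698. *Plin2* was called in 19 and *Angptl4* in 14 of 25 alternatives, with adjusted p-values of 0.00252 to 0.49 and 0.00121 to 0.424, and both stayed negative in all.

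Of the markers of other cell types, 8 were called, against 21 with DESeq2, 0 with limma-voom, 0 per mouse, 16 without the filter, 0 without the tumors of N42 and 3 without Montana and Oregon. Leaving out 1 tumor gave 5 (without the N42 right femur tumor) to 11 (without Zelda). Over all tested genes, 339 were called higher and 340 lower without the filter, and 170 and 202 without Montana and Oregon. Without the N42 right femur tumor 113 were called higher and 167 lower. No paired analysis was possible because no mouse gave both a KO and a WT tumor. Depth and TMM scaling limit Massa and Grilka most, where 3 counts exceed the WT median of *Adipoq*, *Plin1* and *Cidec*.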

Other observations

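Markers of other tissues were high in single tumors or pairs of tumors. *Bpifa2* and *Muc19*, salivary gland genes, were at 5779 and 2210 CPM in Prince, where the 6 adipocyte-defining genes summed to 4.48 CPM. *Alb*, made by the liver, was at 876 CPM in Zelda, where the sum was 0.475 CPM. *Sftpc*, a surfactant gene of the lung, was at 3212 CPM in Massa, where the sum was 15.6 CPM from 7 counts, and at 2411 CPM in the WT tumor N25, where it was 13.2 CPM. The osteoblast gene *Col1a1* was at 1567 CPM in Montana and 1515 CPM in Oregon, against a KO median of 3979 CPM and a WT median of 32526 CPM.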
